A study of Mus musculus with 5 samples.

Results

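The genes described here were 7 kallikrein-related peptidases of the type best known from epidermis: Klk6, Klk7, Klk8, Klk10, Klk11, Klk13 and Klk14. They were chosen by name out of 32932 genes measured in the series, with earlier results on these same libraries in view (their levels, their irradiation and day differences and their detection together with Sprr1a), so all values below describe the libraries and none was tested. All 7 genes were listed in each of the 5 libraries. In 7-day mouse salivary gland organoids (mSGOs), Klk8 made up nearly all of the UMIs (unique molecular identifiers) of the group and hardly differed between non-irradiated and irradiated cultures. The other 6 genes were close to the detection limit, and the higher sum of their UMIs after proton irradiation rested on 5 cell barcodes that also carried many transcripts of cornification genes. In 11-day mSGOs the level of Klk8 was 0.207 times that at day 7, and in fresh gland tissue 5 UMIs of Klk8 and none of the others were found.

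Kallikrein-related peptidases are secreted serine proteases that are made as inactive precursors and are switched on by cleavage, often by one another, in a proteolytic cascade. In the outer epidermis several of them cut the proteins that hold dead surface cells together, so that these cells can be shed. The inhibitor encoded by Spink5 restrains some of these proteases, but not all. The mouse submandibular gland is known for another branch of the family, the glandular kallikreins (Klk1 and the Klk1b genes), which granular duct cells store and release into saliva. Sprr1a encodes a small proline-rich precursor of the cornified envelope, the protein shell of terminally differentiating squamous cells.

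The data comprised 5 single-cell RNA-seq libraries of C57BL/6 mouse submandibular salivary gland, 1 per group, made with a droplet-based 3' kit from 45000 sorted cells that excluded propidium iodide. Organoids were grown in Matrigel from cells of 4 animals in a medium that contained EGF, FGF2, insulin, dexamethasone, Y27632 and media conditioned with R-spondin1 and Wnt3a. The non-irradiated, photon and proton mSGOs were collected at day 7, the latter pair after 7 Gy of photons or 7 Gy of protons at day 5, and these 3 cultures and the fresh tissue came from mice 8 to 12 weeks old. The 11-day mSGOs were not irradiated, came from other animals and were processed in a separate run, and the labels give no age for them. The labels give no sex, and the study's methods state that only females were used. Since the animals of a group were combined in 1 library, there were no replicates. All intervals below are 95% intervals for counting error only.

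Filtering left 6494 barcodes of the non-irradiated, 15610 of the photon, 16085 of the proton, 9484 of the 11-day and 1409 of the tissue library, with 5954567 to 32070703 UMIs per library and medians of 898.5 to 3025 UMIs per barcode. Malat1, a transcript retained in the nucleus, made up at least 1% of the UMIs in 8.55% to 15.97% of the barcodes of the 7-day libraries and in 98.8% of those of the 11-day library. This share is used below as a mark of barcodes with nuclear RNA. Pairs of libraries shared 3 to 69 kept barcode sequences. The 7 basal duct markers summed to 8748 to 9678 CPM (UMIs per 1000000 UMIs of the library) in the 7-day libraries and to 4369 CPM in the 11-day library. The acinar list, of which at most 1 gene was detected in any 7-day library, summed to at most 0.24 CPM in these libraries and to 31981 CPM in tissue. Immune, endothelial and myoepithelial lists stayed at or below 26.0 CPM in the organoid libraries. In tissue the basal duct list reached only 39.6 CPM, so that library held few cells of the kind that dominated the organoids.

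All 7 genes lie in one stretch of mouse chromosome 7, in the order Klk14, Klk13, Klk11, Klk10, Klk8, Klk7 and Klk6, between positions 43680880 and 43832027 of GRCm38.p6, a span of 151 kb. Klk12, Klk9 and Klk5, which are relatives outside the chosen set, sit in or next to this stretch. Promoter windows of 300 bases, from 250 bases before to 50 after each annotated start, were taken from RefSeq for all 7 genes (9 entries). Shown are the windows of Klk8, the abundant member, and of Klk10 and Klk14, the genes whose irradiation values are examined below. All are on the plus strand, written 5' to 3', and capitals mark CCACCC (the Klf motif) on either strand, so that GGGTGG in capitals is a match on the minus strand. The windows are chr7:43797327-43797626 for Klk8, chr7:43780804-43781103 for Klk10 and chr7:43690168-43690467 for Klk14.
Klk8: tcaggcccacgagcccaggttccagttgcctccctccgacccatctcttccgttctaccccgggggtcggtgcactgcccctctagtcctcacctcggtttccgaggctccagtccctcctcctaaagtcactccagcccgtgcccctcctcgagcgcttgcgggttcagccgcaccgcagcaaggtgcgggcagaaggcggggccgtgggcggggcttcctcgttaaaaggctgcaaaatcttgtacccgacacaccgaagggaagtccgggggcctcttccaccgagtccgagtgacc
Klk10: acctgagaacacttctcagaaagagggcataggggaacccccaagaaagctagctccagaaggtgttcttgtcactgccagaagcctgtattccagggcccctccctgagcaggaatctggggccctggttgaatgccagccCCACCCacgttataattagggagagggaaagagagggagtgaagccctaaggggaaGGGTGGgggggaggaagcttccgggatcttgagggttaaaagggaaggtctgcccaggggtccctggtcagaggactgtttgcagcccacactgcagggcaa
Klk14: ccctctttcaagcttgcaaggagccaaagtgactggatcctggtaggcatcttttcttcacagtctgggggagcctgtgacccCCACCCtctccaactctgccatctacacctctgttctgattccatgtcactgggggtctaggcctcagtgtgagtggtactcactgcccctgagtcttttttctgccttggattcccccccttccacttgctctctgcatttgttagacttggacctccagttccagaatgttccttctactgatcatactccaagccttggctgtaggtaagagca

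The Klk8 window was the richest in G and C of the 3, at 65.3%, against 57.3% for Klk10, 52.0% for Klk14 and a median of 52.7% over 32851 mouse promoter windows of this length. It held none of the 5 motifs searched. CCACCC occurred in windows of Klk7, Klk10, Klk11, Klk13 and Klk14, which is 5 of the 9 entries, while 31.5% of all windows held it. The AP-1 motif, TGANTCA, was in none of the 9 entries and in 7.81% of all windows. The grainyhead motif, AACCGGTT, and the palindromic glucocorticoid receptor motif were also in none, and in 0.146% and 0.00913% of all windows. The core promoter motif TATAAA was in none of the 9 and in 13.6% of all windows. Every motif was searched on both strands, and the matches did not overlap. A match is a run of letters and not a binding site, and the absence of a match says only that these letters are not in the window.

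To see which of these proteases the cells expressed, the UMIs of all kept barcodes of a library were added up and expressed as CPM. Each transcript gives 1 tag at its 3' end, so CPM were not divided by transcript length. Klk8, which encodes the trypsin-like protease neuropsin, measured 260 CPM (252 to 268) in non-irradiated, 267 CPM (260 to 273) in photon and 277 CPM (271 to 284) in proton mSGOs at day 7, 53.5 CPM (51.0 to 56.1) at day 11 and 0.84 CPM (0.27 to 2.0) in tissue. The 3 libraries of day 7 lay close together and the intervals of the non-irradiated and photon libraries overlapped, whereas day 11 and tissue were far below. These values rest on 4109, 6756, 7118, 1716 and 5 UMIs. Klk8 was detected in 34.0% of non-irradiated, 29.4% of photon, 30.0% of proton, 14.7% of 11-day and 0.284% of tissue barcodes, at unequal depths.

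**Figure D1:**
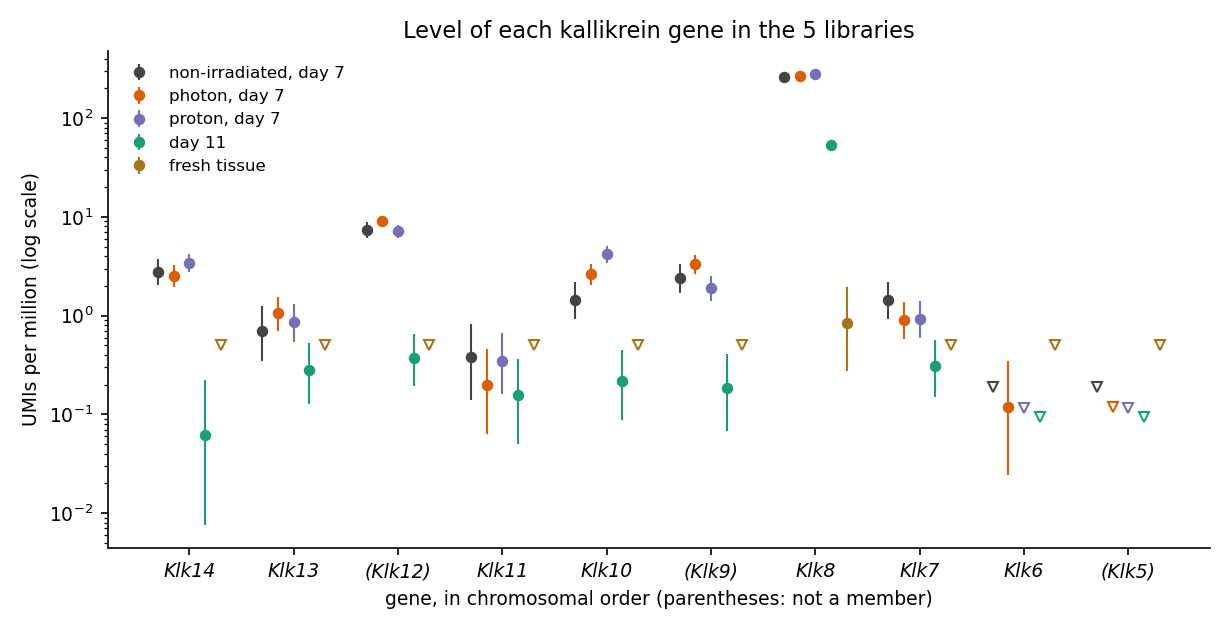
Level of each kallikrein gene in CPM (log scale), with 95% counting intervals, in the 5 libraries; genes are in chromosomal order, names in parentheses are relatives outside the chosen set, and an open triangle marks the level of 3 UMIs where none was found. Klk8 stands at 260 to 277 CPM in the 7-day libraries, and no other gene shown exceeds 9.03 CPM.

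The other 6 genes summed to 6.77 CPM in non-irradiated, 7.46 CPM in photon and 9.74 CPM in proton mSGOs and to 1.03 CPM at day 11, so that Klk8 made up 97.5%, 97.3%, 96.6% and 98.1% of the UMIs of the group. Among them Klk14, a trypsin-like protease that can activate others of the cascade, measured 2.78, 2.52 and 3.43 CPM in the 7-day libraries. Klk10 measured 1.46, 2.64 and 4.17 CPM in the same order. Klk7, the chymotrypsin-like protease of the shedding process, measured 1.46, 0.91 and 0.94 CPM.

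Klk13 measured 0.70, 1.07 and 0.86 CPM and Klk11 0.38, 0.20 and 0.35 CPM, and in the non-irradiated library the intervals of neighbours in the order Klk14, Klk10 and Klk7, Klk13 and Klk11 overlapped. Klk6 was represented by 3 UMIs in the photon library and by 0 in the other 4, where a count of 0 allows up to 0.19 CPM in non-irradiated and 0.12 CPM in proton mSGOs. At day 11, Klk7, Klk13, Klk10, Klk11 and Klk14 stood at 0.31, 0.28, 0.22, 0.16 and 0.06 CPM, and in tissue no UMI of the 6 genes was found, which allows up to 0.50 CPM each. Only Klk8 was therefore measured well enough for statements about shares of barcodes.

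The neighbours in the same stretch did not follow one pattern. Klk12 (7.40, 9.03 and 7.13 CPM in non-irradiated, photon and proton mSGOs) exceeded each of the 6 low genes, and Klk9 stood at 2.40, 3.31 and 1.91 CPM. Klk5, which starts the cascade in epidermis, had 0 UMIs in all 5 libraries, as had Klk4 and Klk15. The 14 glandular kallikreins showed the opposite distribution to Klk8, with sums of 0.82, 0.20 and 0.12 CPM in the 7-day libraries, 21.2 CPM at day 11 and 7948 CPM in tissue, of which Klk1 alone made up 6356 CPM. Reads of the near-identical Klk1b genes may have been divided among them, so only their sum and Klk1 are given.

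Photon and proton libraries were then compared with the non-irradiated library, as log2 ratios of CPM with 1 CPM added. A gene with at least 20 UMIs in a comparison is called here where this ratio is at least 1 or at most -1. Klk8 differed by 0.04 (-0.02 to 0.09) after photons and by 0.09 (0.04 to 0.15) after protons, and the median over all genes was 0.09 in both comparisons. The ratios of Klk8 thus lay near this median, which is a median of signed ratios and does not measure how far a typical gene moved. In the barcodes with at least 1% Malat1 (Malat1 barcodes below) the ratios of Klk8 were 0.00 and 0.06. Both irradiated libraries share the control library.

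After photons none of the 5 members with enough UMIs was called, against 0.678% of all genes called higher and 0.246% called lower. In the Malat1 barcodes none of 4 was called, with backgrounds of 1.35% higher and 0.460% lower. Klk10 came nearest over all kept barcodes, with 23 UMIs in the non-irradiated and 67 in the photon library and a log2 ratio of 0.57 (0.11 to 1.01). Klk7 (-0.36), Klk14 (-0.10) and Klk13 (0.28) had intervals that included 0.

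After protons Klk10 was called higher over all kept barcodes, at 1.07 (0.63 to 1.49), from 23 and 107 UMIs. It was 1 of 5 members tested, while 0.887% of genes were called higher and 0.273% lower. Klk14 was at 0.23, Klk13 at 0.13 and Klk7 at -0.34. In the Malat1 barcodes Klk10 (2.23, 1.56 to 2.83) and Klk14 (1.85, 1.19 to 2.47) were both called, from 9 and 82 and from 11 and 70 UMIs, while 1.18% of genes were called higher and 0.845% lower. Both genes had the 20 UMIs needed only through the proton library, so their number among the members tested is not read against this background. Between the irradiated libraries no member of 5 was called over all kept barcodes (background 0.141% higher for protons and 0.0664% lower). In the Malat1 barcodes Klk10 (1.47) and Klk14 (1.36) were higher after protons, 2 of 5 tested (background 0.176% higher and 0.296% lower).

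These differences rested on a handful of barcodes. Barcodes with 6 or more UMIs of the 6 low genes numbered 0 of 6494 in the non-irradiated, 3 of 15610 in the photon and 5 of 16085 in the proton library, and 0 at day 11 and in tissue. A count of 0 allows a share of up to 0.0462% in the non-irradiated library, which is above the 0.0192% and 0.0311% found after photons and protons, so a difference in their frequency was not detectable at this depth. The limit of 6 UMIs was set after seeing the values. These barcodes held 39 of the 189 UMIs of the 6 genes in the photon library (20.6%) and 151 of 250 in the proton library (60.4%).

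Without them the proton ratio of Klk10 went from 1.07 to -0.13 and that of Klk14 from 0.23 to -1.12 (-1.52 to -0.67), past the limit in the other direction. The sum of the 6 genes went from 0.47 (0.17 to 0.76) to -0.67 (-1.01 to -0.33) after protons, and from 0.12 (-0.19 to 0.43) to -0.17 after photons. Within the Malat1 barcodes the proton value of the sum fell from 1.82 to -0.51 in the same way. The Klk8 values changed little (0.01 after photons and 0.09 after protons without these barcodes). The direction of the proton difference in the 6 low genes was therefore set by 5 barcodes of 1 library. Since the barcodes were picked by the same UMIs and the non-irradiated library had none, leaving them out could only lower the irradiated values.

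**Figure D2:**
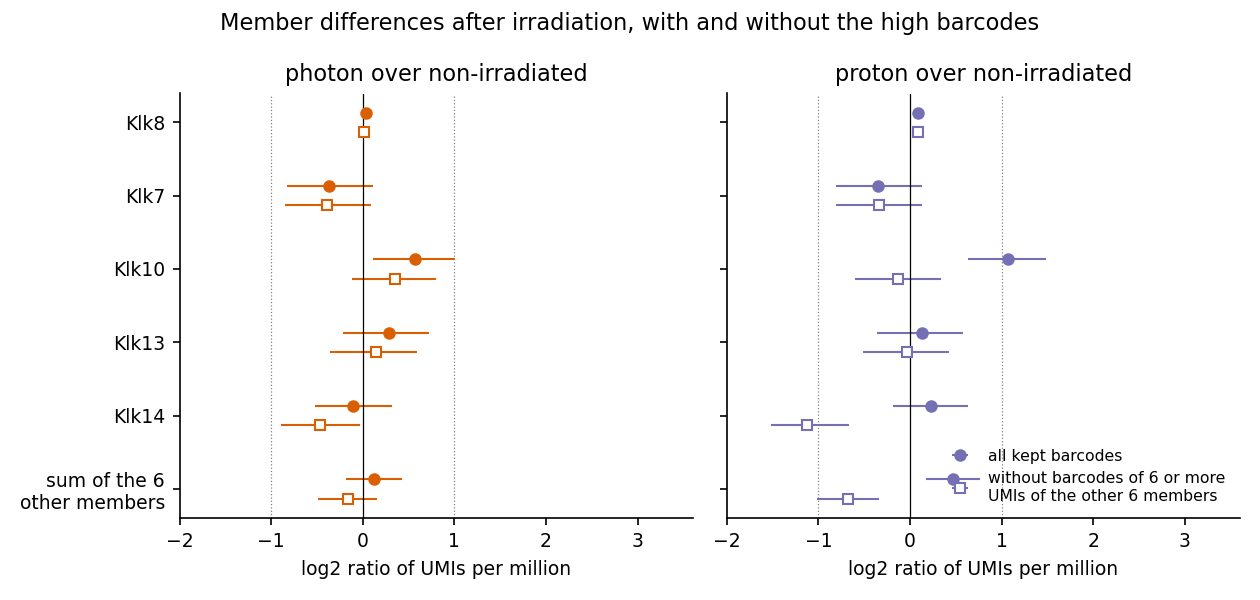
Log2 ratio of CPM, photon (left) and proton (right) over non-irradiated mSGOs, for 5 genes and for the sum of the 6 members other than Klk8, with 95% counting intervals; filled circles are all kept barcodes, open squares leave out the 3 and 5 barcodes with 6 or more UMIs of those 6 members, and dotted lines mark -1 and 1. Klk8 stays near 0, while Klk10 after protons moves from 1.07 to -0.13.

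At day 11 the level of Klk8 was lower than in non-irradiated 7-day mSGOs by a log2 ratio of -2.25 (-2.33 to -2.17), although the median log2 ratio over all genes was 0.99. Klk10 (-1.01) and Klk14 (-1.83) were called lower as well, 3 of 5 members tested, while 4.74% of all genes were called lower. Klk10 and Klk14 had the 20 UMIs needed only through the 7-day library (23 and 44, against 7 and 2 at day 11). The number of members called is therefore not read against this background. Klk7 was at -0.90. In the Malat1 barcodes Klk8 (-2.02) and Klk7 (-1.22) were the members with 20 UMIs and both were called lower, against 4.77% of genes, while Klk10 (-0.93) and Klk14 (-1.30) had too few UMIs. Krt14, a basal duct keratin, was also lower at day 11 in the Malat1 barcodes (1635 against 5110 CPM), whereas Sprr1a was higher (2444 against 754 CPM). The day, the animals, the run and the software version of the count tables (3.0.1 and 7.0.0 in the file headers) changed together and cannot be told apart, and what fewer positive cells or less RNA per cell contributed was not tested.

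In fresh tissue Klk8 was lower by a log2 ratio of -7.15 (-7.68 to -6.46), and Klk7, Klk10 and Klk14 were listed at 0. All 4 members tested were called lower, as were 51.7% of all genes, and the median over all genes was -1.59. Klk7, Klk10 and Klk14 had enough UMIs only through the non-irradiated library (23, 23 and 44). Their ratios, -1.30, -1.30 and -1.92, are the lowest that these counts allow. The number of members called is therefore not read against this background. The 5 UMIs of Klk8 came from 4 barcodes with 2164 to 5524 UMIs, of which none held a UMI of Krt14 or Epcam. Of these 5 UMIs, 3 fell in the 325 barcodes, of 1409 kept, with at least 2 UMIs of 7 immune or endothelial marker genes.

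Klk8 was also compared between barcodes rich and poor in Malat1. It measured 219, 219 and 228 CPM in the Malat1 barcodes of the non-irradiated, photon and proton libraries, and 291, 291 and 300 CPM in those below. The proportion of Klk8 to Krt14 was at day 7 within a narrow range in both, with 4.28, 4.52 and 4.54 Klk8 UMIs per 100 Krt14 UMIs in the Malat1 barcodes and 4.46, 4.46 and 4.54 in the others. At day 11 it was 3.23 and 3.72. Against Sprr1a the proportion at day 7 differed: 29.0, 18.8 and 23.7 Klk8 UMIs per 100 Sprr1a UMIs in the Malat1 barcodes and 65.6, 64.6 and 95.5 in the others. What part free RNA had in the barcodes with little Malat1 was not tested.

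The question of whether the proteases and Sprr1a were found in the same cells was addressed in the Malat1 barcodes. As sequenced, 64.5% of Sprr1a-positive and 56.8% of Sprr1a-negative barcodes of the non-irradiated library held a Klk8 UMI, but their median depths were 7131.5 and 5000 UMIs. To remove this difference, shares were computed for 1000 UMIs per barcode, as the expectation over all possible draws of 1000 UMIs, leaving out 33 to 135 shallower barcodes per library. The shares of Klk8-positive barcodes with and without Sprr1a were then 18.1% and 18.5% in non-irradiated (ratio 0.98, 0.70 to 1.38), 15.95% and 17.2% in photon (0.93, 0.70 to 1.23) and 19.0% and 18.9% in proton mSGOs (1.00, 0.73 to 1.37).

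The shares of Klk8-positive barcodes with and without Sprr1a thus lay within each other's intervals at day 7, and the intervals of their ratios allow values from 0.70 to 1.38. Klk8 did not reach a ratio of 2 in any library, which 2.16%, 1.58%, 2.12% and 0.113% of all genes did in the non-irradiated, photon, proton and 11-day libraries. In the 11-day library the ratio was below 1, at 0.54 (0.45 to 0.65), with Klk8 in 3.76% of barcodes with and 6.94% of barcodes without Sprr1a, and 98.9% of 11502 genes had a higher ratio. There the median depths were alike as sequenced (3024 and 3015 UMIs) and the unthinned shares, 12.8% and 22.1%, gave the same order. Across 13 cornification genes at day 11, Klk8 CPM in barcodes with over without the gene had a median ratio of 1.05. The interval lay above 1 for 4 of these genes and below 1 for 1, which was Sprr1a. The low ratio with Sprr1a is therefore not read as one with cornification genes in general.

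**Figure D3:**
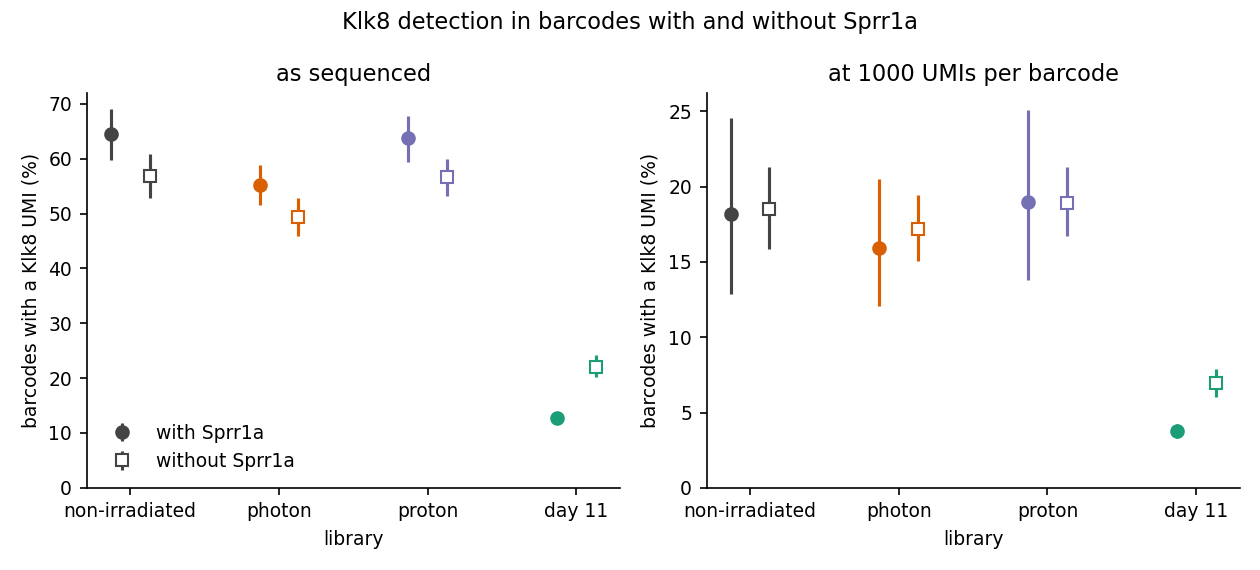
Share of barcodes with a Klk8 UMI (%) among barcodes with (filled circles) and without (open squares) a Sprr1a UMI, with 95% counting intervals, in 4 libraries; only Malat1 barcodes are used, as sequenced on the left and at 1000 UMIs per barcode on the right. At 1000 UMIs the shares with and without Sprr1a lie within each other's intervals at day 7 and are 3.76% with and 6.94% without Sprr1a at day 11.

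For the 6 low genes the sum stood apart from all UMIs, but not each gene. Of the summed UMIs in Malat1 barcodes, 75.7% (28 of 37) were in Sprr1a-positive barcodes of the non-irradiated library, 79.7% (63 of 79) of the photon and 89.4% (161 of 180) of the proton library, where all UMIs together had 48.6%, 52.5% and 44.2% there. For Klk8 these shares were 48.4%, 55.9% and 46.5%, close to those of all UMIs. Leaving out the barcodes with 6 or more UMIs of the low genes gave 60.0% in the photon and 34.5% in the proton library. These barcodes were picked by the same UMIs, so the lower values follow in part from the choice. Klk7 lay near all UMIs, at 57.1% (8 of 14), 58.3% (7 of 12) and 38.9% (7 of 18). At 1000 UMIs per barcode the ratio of the detection of the 6 genes with and without Sprr1a was 2.40 (0.53 to 11.0) in the non-irradiated library, 2.38 (0.67 to 8.47) in the photon and 4.52 (1.17 to 17.5) in the proton library, and the proton value was 0.54 (0.02 to 13.2) without the barcodes with 6 or more UMIs. Of these intervals, which are large-sample approximations, only that of the proton library with these barcodes lay above 1.

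Klk8 was spread over barcodes far more evenly than Sprr1a, though less evenly than most genes. At 1000 UMIs per barcode its variance was 1.10, 1.05 and 1.09 times its mean in the 7-day libraries, whereas Sprr1a had 15.8, 15.6 and 17.1 times, with 81.7%, 83.7% and 82.1% of barcodes without a Klk8 UMI against 81.0%, 83.5% and 81.2% for a Poisson distribution of the same mean. The medians of this variance ratio over all genes compared were 1.03, 1.02 and 1.02, and 19.9%, 31.8% and 16.4% of genes lay above Klk8. These ranks are over genes of any level and were not matched for the mean. The means of Klk8 and Sprr1a also differed, at 0.21 and 0.69 UMIs per barcode in the non-irradiated library.

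To look beyond Sprr1a, Malat1 barcodes were divided by the share of their UMIs that came from 25 cornification genes (small proline-rich proteins, loricrin, involucrin, epidermal keratins, transglutaminases and other envelope components, with none of the 7 proteases among them). Barcodes in which these genes made up at least 2% of UMIs, a limit set after seeing the data, numbered 38 in the non-irradiated, 48 in the photon, 39 in the proton and 19 in the 11-day library, or 3.66%, 3.06%, 2.83% and 0.203% of the Malat1 barcodes. The 11-day group is under 20 barcodes and is not read.

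In these cornification-rich barcodes the 6 low genes measured 23.1 CPM (9.29 to 47.6) in the non-irradiated, 97.1 CPM (71.6 to 129) in the photon and 365 CPM (310 to 427) in the proton library, against 4.64, 3.88 and 3.20 CPM in the other Malat1 barcodes. Without the barcodes with 6 or more of their UMIs the values were 19.8 CPM (9.07 to 37.7) in the photon and 11.4 CPM (3.11 to 29.2) in the proton library, the latter from 4 UMIs and with an interval that overlapped the 2.07 to 4.72 CPM of the other barcodes. Klk8 measured 313, 514 and 355 CPM in the cornification-rich barcodes and 214, 200 and 222 CPM in the others. Without the same barcodes it measured 287 and 274 CPM in the irradiated libraries. Barcodes were also grouped by the cornification genes detected at 1000 UMIs. From 0 to 6 or more such genes, the Klk8-positive share at that depth went from 16.9% to 12.6% in the non-irradiated library. It went from 20.8% to 15.7% in the photon and from 15.6% to 23.3% in the proton library, with overlapping intervals in each library. From all UMIs, Klk8 in these groups measured 208 and 269, 200 and 398, and 207 and 288 CPM in the same order. These intervals did not overlap in the photon (173 to 229 and 355 to 445) and proton libraries (180 to 236 and 246 to 335). The groups with 6 or more such genes also held 49 and 155 UMIs of the low genes there. What the barcodes with 6 or more of those UMIs contributed to Klk8 in these groups was not tested. In the irradiated libraries most of the low-gene UMIs in cornification-rich barcodes were of Klk10, Klk13 and Klk14. Klk7 had 0, 2 and 1 UMIs in the cornification-rich barcodes of the 3 libraries and 14, 10 and 17 in the others. Scaled to depth this is 0, 4.05 and 2.35 CPM against 2.17, 1.25 and 2.17 CPM, too few UMIs for a difference to be read.

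Over all genes with at least 20 UMIs, 7.48%, 6.98% and 7.93% were higher by a log2 ratio of at least 1 in the cornification-rich barcodes of the 3 libraries. In the non-irradiated library Klk8 was the only member with enough UMIs, at 0.55 (0.23 to 0.85), and did not reach that limit. In the photon library Klk8 stood at 1.35 (1.16 to 1.55), Klk10 at 3.45 from 13 and 12 UMIs and Klk14 at 4.91 from 20 and 3 UMIs. In the proton library Klk8 stood at 0.68, Klk10 at 6.67 from 76 and 6 UMIs and Klk14 at 7.18 from 69 and 1. Klk10 and Klk14 would have had fewer than 20 UMIs in both libraries without the cornification-rich barcodes, so nothing is read from how many of the members reached the limit. These ratios include the 3 and 5 barcodes with 6 or more UMIs of the low genes. With a limit of 1% in place of 2% the low genes measured 12.5 CPM in 88 barcodes of the non-irradiated, 59.4 CPM in 100 of the photon and 227 CPM in 75 of the proton library. A limit of 5% left 8, 11 and 11 barcodes, which were not read.

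**Figure D4:**
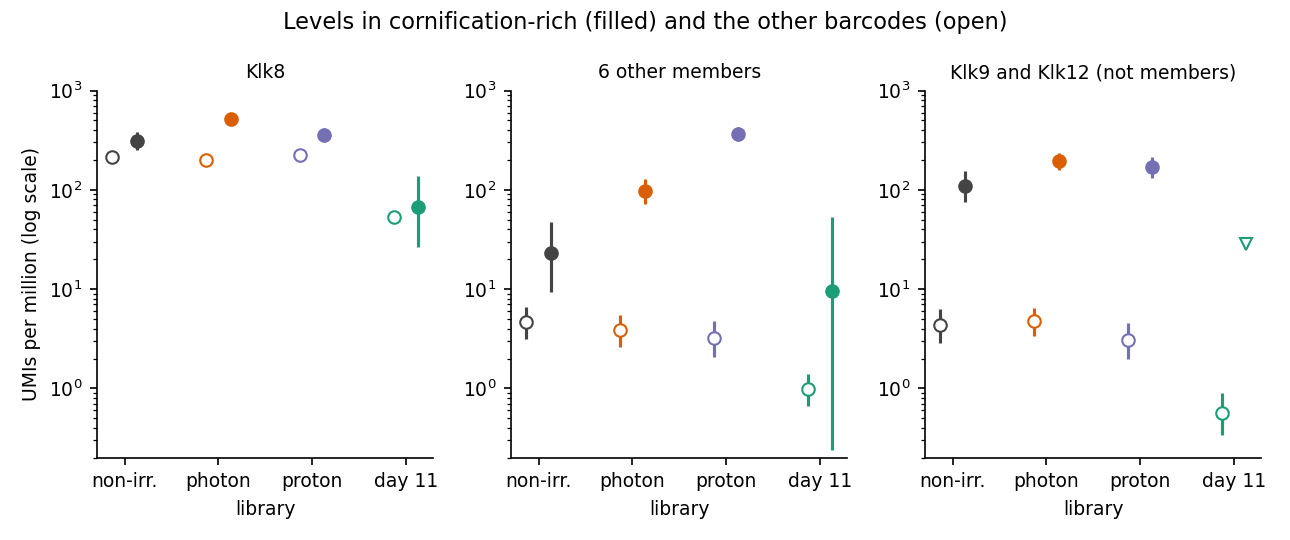
Levels in CPM (log scale) of Klk8, of the 6 other members and of their relatives Klk9 and Klk12 in Malat1 barcodes with at least 2% (filled) and under 2% (open) of UMIs from 25 cornification genes, with 95% counting intervals, in 4 libraries; an open triangle marks 3 UMIs where none was found. Filled points lie above open points in each panel at day 7, least so for Klk8 without irradiation (313 against 214 CPM). Filled points of the photon and proton libraries include the barcodes with 6 or more UMIs of the 6 other members.

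Several genes of the same cascade outside the chosen set also stood higher in the cornification-rich barcodes. Klk9 and Klk12 together measured 109, 194 and 169 CPM there and 4.33, 4.76 and 3.07 CPM in the other barcodes. Much of this came from few barcodes. Without those with 6 or more UMIs of the low genes, the photon Malat1 barcodes kept 21 of 43 Klk9 and 46 of 91 Klk12 UMIs. The proton ones kept 11 of 25 and 29 of 71. In the non-irradiated library a single barcode held 7 of 20 Klk9 UMIs, and a single one held 14 of 41 Klk12 UMIs. Spink5, an inhibitor gene, measured 848 CPM against 69.9 CPM in the non-irradiated library (log2 ratio 3.58). The photon library had this difference at 3.99 (3.84 to 4.15) and the proton library at 4.51 (4.33 to 4.70). Tmprss11e, a membrane-bound trypsin-like protease of squamous epithelium, had ratios of 3.51, 2.80 and 3.49. The inhibitors Spint1 (0.96, 1.91 and 1.44) and Spint2 (0.29, 0.54 and 0.59) differed less, and the basal keratin Krt14 was at 0.11, 0.26 and -0.15.

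The 8 barcodes with 6 or more UMIs of the low genes were all among the cornification-rich ones. Each held UMIs of 15 to 18 of the 25 cornification genes, which made up 3.18% to 10.8% of its UMIs, where the medians of Malat1 barcodes with at least 5000 UMIs were 0.246%, 0.208% and 0.203% in the 3 libraries. The first proton barcode, with 15846 UMIs, held 55 UMIs of Klk10, 22 of Klk14, 5 of Klk13, 30 of Klk8 and 0 of Klk7. Another proton barcode held 30 UMIs of Klk14, and a further one 15, with 3 of Klk10 each, and the remaining pair held 7 UMIs of Klk10 each. Which of the low genes was abundant thus differed from barcode to barcode.

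The first photon barcode held 16 UMIs of Klk14, 7 of Klk10 and 51 of Klk8, the second 3, 4 and 73, and the last, with only 1704 UMIs, 1, 2 and 0. The 2 deep photon barcodes, with 18097 and 21071 UMIs, had the highest Klk8 levels of the 8, at 2818 and 3464 CPM, against 1893, 729, 661, 244 and 258 CPM in the 5 proton barcodes and 218 to 225 CPM over all 7-day Malat1 barcodes of at least 5000 UMIs. High Klk8 therefore did not accompany high Klk14 or Klk10 in each of them. All 8 were without UMIs of Klk5 and Klk6, and 7 held UMIs of Klk12.

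**Figure D5:**
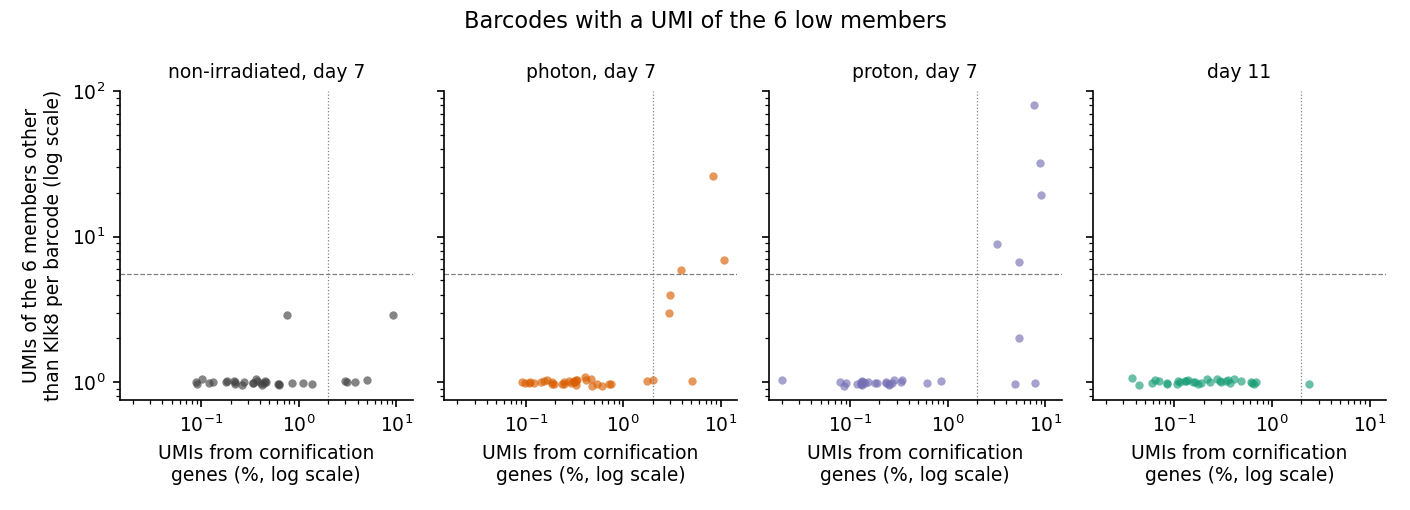
Each point is 1 Malat1 barcode with a UMI of the 6 members other than Klk8, in 4 libraries; the x axis is the share of its UMIs from 25 cornification genes (%, log scale) and the y axis its UMIs of the 6 members (log scale, slightly jittered), with lines at 2% and between 5 and 6 UMIs. The 3 photon and 5 proton barcodes above the dashed line all lie to the right of the dotted line, and none lies above it in the non-irradiated and 11-day libraries.

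Single barcodes thus weighed heavily on these genes. Over all kept barcodes, a single barcode held at least 25% of the UMIs of 0, 0.107%, 0.0810% and 0.203% of all genes with at least 20 UMIs in the non-irradiated, photon, proton and 11-day libraries. Klk14 in the photon library and Klk10 and Klk14 in the proton library were among them, with 25%, 51.4% and 34.1% of their UMIs in 1 barcode. None of the members tested reached this limit in the non-irradiated or the 11-day library.

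Genes that act on the cascade were taken from fixed lists. Among 6 proteases that can activate kallikreins, such as the membrane protease St14 (matriptase), 0 were called in either irradiation comparison, and the medians of the list were -0.04 after photons and -0.08 after protons. Of 8 protease inhibitors 5 had enough UMIs and 0 were called, and of 7 substrates and receptors, such as corneodesmosin (Cdsn) and the receptor F2rl1, 4 had enough UMIs and 0 were called. With lists of this size and the backgrounds of 0.678% and 0.246% after photons and 0.887% and 0.273% after protons, these counts of 0 say little. The highest positive value after photons was that of Tmprss11e, with 30.4, 57.5 and 47.4 CPM in non-irradiated, photon and proton mSGOs and ratios of 0.90 (0.75 to 1.05) and 0.63 (0.48 to 0.78), followed by Spink5, with 80.4, 133 and 101 CPM and ratios of 0.73 and 0.33. The lowest value after protons was that of Dsg1b, a desmosomal cadherin, at -0.54.

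The Kunitz-type inhibitors that control matriptase and related membrane proteases were not called. Spint1 stood at 61.4, 60.1 and 64.7 CPM, and Spint2 at 319, 263 and 297 CPM, with a ratio of -0.28 (-0.33 to -0.23) after photons. At day 11 the activating proteases had 3 of 6 genes called lower and the inhibitors 1 of 4, which was Spink5 (24.3 CPM, ratio -1.68), against the background of 4.74% given above. Spint1 (73.5 CPM) and Spint2 (259 CPM) were not called. Of the other kallikreins both with enough UMIs, Klk9 (-1.52) and Klk12 (-2.61), were called lower, as were 2 of 4 substrates and receptors. The latter were Dsg1b and Cdsn. Klk9, Klk12, Dsg1b and Cdsn had enough UMIs only through the non-irradiated library. Their counts there were 38, 117, 62 and 56, against 6, 12, 0 and 5 at day 11. How many of them were called is therefore not read against the background. In tissue Spink5 and Tmprss11e were listed at 0.

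Finally, the genes whose values across Malat1 barcodes were most like the mean of the 7 members were ranked by Pearson r, as the median of the 3 libraries of day 7 over 5261 genes. Since Klk8 dominates that mean (r = 0.93), the ranking mostly describes Klk8. Among the first 10 were Tubb5, Rpl36a, S100a14, Rps10, Ly6g6c, Rpl11, Rps4x, Eif5a and Rpl6, with r from 0.15 to 0.17, and several of these encode ribosomal proteins. Sprr1a came at rank 1589 with r = 0.04. These values are weak, the counts sparse and depth shared by all genes of a barcode, so no likeness was read from them.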

How the data were processed

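Droplet-based 3' libraries of 4 organoid cultures and 1 fresh tissue sample were analysed, grouped by their labels. For each, the authors deposited a filtered matrix of UMI counts per gene and barcode. The submitters' processing notes name Cell Ranger 5 and mm10, the file headers versions 3.0.1 and 7.0.0, and the study's methods another mouse build, so the counting build is uncertain; promoter coordinates are those of RefSeq for GRCm38.p6. Version 7 counts intronic reads by default, and whether this was on is not given in the sources used here. Barcodes with at least 200 detected genes and at most 5% mitochondrial UMIs were kept, and doublets were removed with Scrublet (scanpy 1.11.5). Its automatic threshold was used for proton (10.06%) and tissue (0.635%) libraries. In the others it marked under 0.5%, and the top-scoring barcodes were taken out until 0.8% per 1000 barcodes was reached (control 5.50%, photon 14.6%, 11-day 8.27%). Removal thus differed between the irradiated libraries. The choice was not stable, since an earlier run on these libraries used the automatic threshold for photon and not for proton.

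UMIs were summed per library and scaled to CPM. Intervals were exact Poisson (CPM), conditional exact binomial (ratios of CPM, computed with scipy 1.17.1) and Clopper-Pearson (shares), and reflect counting alone. Those of the ratios of detection with and without Sprr1a were large-sample approximations on the log ratio, which are rough where few positive barcodes are expected. No test was run, since each group held 1 library. The scripts were tested on simulated data. The members, lists and limits were chosen with earlier results of these data known. Named genes were the 7 members, list genes with at least 50 CPM in any organoid library, Sprr1a and the 10 genes most like the members, of which 1 is not reported here; Klk9, Klk12, Klk5, Klk4, Klk15, Klk1, Cdsn, F2rl1, St14, Krt14, Cnfn, Tgm1, Itga6, Dsg1b and Malat1 were added after their values were seen. Alternatives covered pseudocount, scaling, barcode filters, doublets, thinning and Sprr1a limits; leaving out high barcodes was added after seeing the data.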

Additional observations from a re-analysis of the deposited data

Results flagged for a closer look

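A gene inside the same stretch of chromosome 7, 2310002F09Rik, was listed in the 11-day matrix only and entered no comparison. RefSeq places it at positions 43745466 to 43755936 of GRCm38.p6, between Klk13 and Klk12. It had 1308 UMIs (40.8 CPM) in 1134 kept barcodes (12.0%) of the 11-day library, a level above those of all members but Klk8. Of its positive barcodes 232 also held a Klk8 UMI. With no value for the 7-day libraries, its change over time was not analysed.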

How the results depend on the processing

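Ratios were recomputed with another pseudocount, scaling, barcode filter or doublet treatment, and detection with Sprr1a with other thinning and Malat1 limits. For Klk8 alone, 10 alternatives per comparison gave log2 ratios of -0.06 to 0.04 (photon over control), 0.00 to 0.14 (proton over control), -3.22 to -2.02 (11-day over control) and -8.11 to -5.48 (tissue over control). For all 7 members together, photon over control was -0.053 with median-of-ratios scaling and -0.042 with at least 2500 genes per barcode; proton over control was 0.013 and 0.33 in the same order. Proton over photon was 0.14 in Malat1 barcodes and 0.37 with at least 2500 genes. For 11-day over control the values were -3.23 (median-of-ratios scaling), -2.35 (all deposited barcodes), -2.03 (Malat1 barcodes), -2.09 (at least 2500 genes) and -2.42 (thinned to 1000 UMIs), and for tissue -8.15 (pseudocount 0.1 CPM), -6.25 (median-of-ratios scaling), -5.52 (Malat1 barcodes) and -7.82 (at least 2500 genes).

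The 6 low genes changed direction. Proton over control, 0.47 for their sum, became -0.20 with 200 to 2500 genes per barcode, -0.26 when thinned and -0.67 without the 5 high barcodes, but 1.82 in Malat1 barcodes and 3.15 with at least 2500 genes. Proton over photon became -0.25, -0.42 and -0.51 under the first 3 settings, and 1.15 and 2.59 under the others. Photon over control was 0.67 in Malat1 barcodes and 0.56 with at least 2500 genes. Klk10 became -0.13 for proton over control without the high barcodes, and for proton over photon -0.57 (200 to 2500 genes), -0.24 (thinned), -0.48 (without the high barcodes) and -0.15 (without the top barcode of each library). The ratio of their detection with Sprr1a in the proton library, 4.52, became 0.54 without the high barcodes. Leaving these barcodes out changes the values by construction; for the other settings the cause was not tested. No paired analysis was possible because each group held 1 library. Depth limits the 6 low genes, with 107 UMIs in the non-irradiated library.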

Other observations

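The barcodes with 6 or more UMIs of the 6 low genes were compared with one another over all genes detected in either of a pair. Profiles of the first and second photon barcodes had a Pearson r of 0.76 across genes, and those of the 5 proton barcodes 0.61 to 0.72, whereas the shallow photon barcode of 1704 UMIs had 0.38 and 0.41 with the other 2. Their barcode sequences differed at 9 to 14 of 16 positions in every pair. Malat1 made up 2.80% to 20.5% of their UMIs and mitochondrial genes 0.437% to 3.16%.

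Klk8 was also compared between barcodes with and without each gene of the cornification list. The list gene was detected at 1000 UMIs per barcode and Klk8 measured from all UMIs, with the barcodes with 6 or more UMIs of the low genes included. Over the 14, 15 and 15 list genes with enough barcodes the median ratio of Klk8 CPM was 1.05 in the non-irradiated, 1.36 in the photon and 1.10 in the proton library, with intervals above 1 for 4, 11 and 5 genes and below 1 for 0. The extremes were Cnfn, at 1.53, 2.40 and 1.68, and Tgm1, at 0.74, 0.90 and 0.84. At day 11 the median over 13 list genes was 1.05, from 0.51 for Sprr1a to 2.08 for Krtdap. Of these intervals 4 lay above 1 and 1 below. Over 7 basal duct markers at day 11 the median was 1.17, from 0.89 for Itga6 to 1.67 for Krt14. In the non-irradiated, photon and proton libraries the basal duct median was 1.09, 0.86 and 1.03. Of the 7 photon intervals, 4 lay below 1 and 2 above 1. At day 11 the medians of the luminal duct, pro-acinar and cycling lists were 0.91, 0.87 and 1.53. Genes within these lists differed. The 5 pro-acinar ratios ran from 0.40 to 2.04, with 2 intervals above 1 and 3 below. Of 7 luminal duct intervals 1 lay above 1 and 2 below, and of 8 cycling intervals 3 lay above 1 and 0 below.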
